A study of Mus musculus with 46 samples.

Results

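The genes described here encode voltage-gated sodium and calcium channels with their auxiliary subunits, the HCN channels and the TRP channels of the mouse dorsal raphe nucleus. Members were the autosomal genes whose symbols carry the stems of these families and whose counts, summed over both alleles, averaged 20 or more at any age. Of 55 genes with such symbols in the tables, 47 were members, out of 15499 genes measured. Trpc5 was left out as X-linked, and Trpa1, Trpc6, Trpm6, Trpv4, Trpv6, Cacna2d4 and Scn11a fell under the minimum. Trpc6 was just outside with a highest mean count of 19.8 at any age, and Trpm5 was just inside with 20.7. Trpc4ap is a member by its symbol, although it encodes a protein associated with a TRPC channel and no channel itself. For comparison, 12069 other autosomal genes passed the same minimum.

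Voltage-gated sodium channels carry the rising phase of the action potential through a pore-forming alpha subunit, and beta subunits shape their gating and their place in the membrane. Calcium channels have an alpha1 pore, which in high-voltage-activated types is joined by alpha2delta and beta subunits, while most gamma family proteins in brain regulate AMPA receptors. HCN channels open on hyperpolarization and carry the pacemaker current, and TRP channels pass cations in response to lipids, calcium, temperature or other stimuli. Serotonin neurons of the dorsal raphe are known for slow, regular firing, which such conductances shape.

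Dorsal raphe tissue was taken from females that were F1 hybrids of C57 and CAST mice, from both reciprocal crosses, F1i and F1r. There were 7 F1i and 7 F1r animals at P5 (postnatal day 5), the same numbers at P15, and 9 F1i and 9 F1r adults. All animals carry 1 C57 and 1 CAST set of autosomes, no treatment is given in the labels, and the maternal strain of F1i is not in the labels. Adult libraries carry 2 numbers in their labels, 3 libraries to each first number; the labels do not say what these mark, and the libraries were counted as separate animals. Each animal has a C57 count and a CAST count per gene. The study's design allows the total, which is the sum of both alleles, to be compared between ages and crosses, and the alleles to be compared within animals.

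Libraries held between 3692778 and 13085952 counts. The serotonergic marker list (5 of 6 names in the tables) was present at each age. Its summed CPM (library-scaled counts, after TMM) in the lowest, the median and the highest animal were 341, 420.2 and 507 at P5, 715, 927 and 1214 at P15, and 839, 999 and 1242 in adults. Genes of this list did not all move as its sum. By the age test given below, 2 of the 5 were higher and 3 lower at P15 against P5 (median log2 change -0.20). The summed CPM of other cell type markers moved with age. Those of 7 myelin genes were 1824, 2300.4 and 3046 at P5, 18043, 23503 and 32145 at P15, and 7272, 8854 and 11679 in adults. For 6 astrocyte genes they were 2825, 3009.6 and 3336 at P5, 4871, 5891 and 7096 at P15, and 5741, 6479 and 7299.7 in adults, and for 6 pan-neuronal genes 4030.3, 4177 and 4321 at P5, 3139.6, 3340.0 and 3807 at P15, and 3557, 3852 and 4181 in adults. Fewer cells of a type and less RNA per cell cannot be told apart in such tissue samples, and age cannot be told apart from the set of libraries made at that age. A sum need not show the course of each gene: of the 6 pan-neuronal genes 3 were higher and 3 lower at P15 against P5. The part of these lists in the age changes of the channel genes was not tested beyond the scaling to pan-neuronal genes given below.

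Most channel genes were lower at P15 than at P5, and a large part of them was higher again in adults. At P15 against P5, 13 members were higher and 32 lower at an adjusted p of 0.05, with a median log2 change of -0.55 against 0.02 over all 13637 genes tested. Over all genes 42.5% were called higher and 40.9% lower, so the members called higher were fewer and those called lower more than that background. In adults against P15, 22 members were higher and 14 lower, with a median log2 change of 0.12 against -0.01, where the shares over all genes were 37.0% and 37.7%. The 40 measured channel partners, such as ankyrins, FGF homologous factors and calcium release channels, had 9 higher and 25 lower members (median -0.31) and then 21 higher and 7 lower members (median 0.24).

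By pattern, 16 members were lower at P15 and then higher in adults, and 10 were lower at P15 with no call afterwards. Another 8 were higher at P15 and then lower: Scn1a, Scn7a, Scn9a, Cacna1s, Cacnb2, Cacnb4, Trpm5 and Trpm7. The 5 members higher in both steps included Scn2b, Scn4b, Trpc1 and Trpm3, and the 6 lower in both included Scn2a, Scn3a, Scn3b, Cacna1d and Trpc7. Trpm2 was called in the adult step only, and also as higher at P15 with the GC-content offset (0.20) and pan-neuronal scaling (0.29), both described below. Trpc4, a receptor-operated channel, was called in neither step, but with pan-neuronal scaling it was higher at P15 (0.44) and lower in adults (-0.31). The ranges of the animals lay apart for 9 members above and 21 below at P15 against P5, where the shares over all genes were 19.8% and 21.3%. In adults against P15 they lay apart for 5 members above and 1 below, against 6.50% and 5.67% of all genes.

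The age changes moved with the GC content of the transcripts. The slope of a library's log2 level on GC content, per 10 percentage points, was 0.18 to 0.30 at P5, -0.41 to -0.02 at P15 and -0.48 to 0.13 in adults. In the quintile of all genes with the highest GC content the median log2 change was -0.54 at P15 against P5 and 0.23 in adults against P15, while in the lowest quintile it was 0.36 and -0.19. The highest quintile holds 14 members, of which 13 were lower at P15 and 11 higher in adults, with median log2 changes of -1.38 and 0.54. The lowest quintile holds 10 members, of which 6 were higher at P15 and 8 lower in adults, with medians of 0.40 and -0.185. In the third quintile the P15 median was -0.69 for 8 members, against 0.01 for all genes. Shares of all genes called within a quintile are not given here. The 16 members that were lower and then higher had a median GC content of 57.7%, against 41.4% for the 8 that were higher and then lower. When a curve over GC content was added for each library, 13 members were higher and 26 lower at P15 (42.4% and 39.3% of all genes), and 18 were higher and 12 lower in adults (37.6% and 38.2%). By its construction the offset removes any change that goes with GC content, whatever its source.

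With the offset, 11 of the 13 members higher at P15 and 26 of the 32 lower ones kept their call, Trpc1 and Scn9a lost theirs, and Hcn2 turned from lower to higher. In adults 18 of the 22 higher and 9 of the 14 lower members kept theirs. Only 7 members were then lower and higher in turn, among them Cacna2d1, Cacna2d2, Cacnb1, Cacnb3, Cacng2 and Trpc4ap. Another choice of scale also mattered. The scale from the pan-neuronal genes was their summed count, in which the most abundant of them weigh most. These 6 genes did not move together. At P15 against P5, 3 were higher and 3 lower (median log2 change 0.04). In adults against P15, 4 were higher and 1 lower (0.18). Scaling to the pan-neuronal genes shifted the median of all genes by 0.33 at P15 against P5 and by -0.21 in adults against P15. On that scale 16 members were higher and 23 lower at P15 (57.4% and 26.6% of all genes), with Scn2a turning from lower to higher, and 16 were higher and 23 lower in adults (22.4% and 54.2%), with Trpm3 turning from higher to lower.

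**Figure D1:**
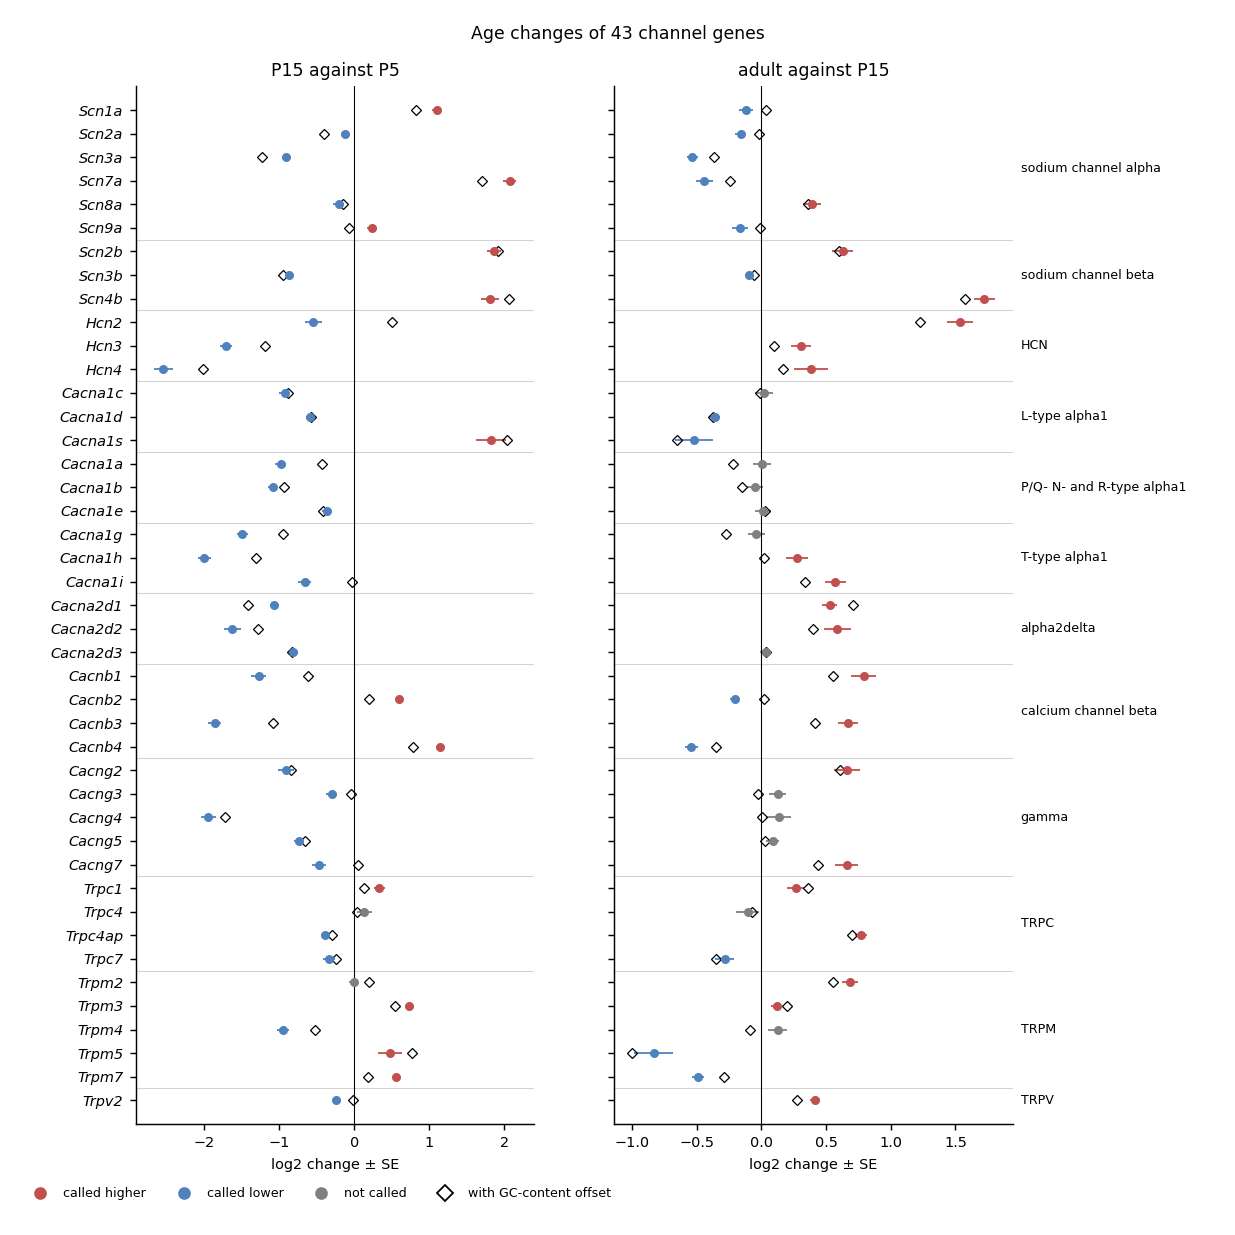
Log2 change ± SE of 43 of the 47 members at P15 against P5 (left) and in adults against P15 (right), ordered by group. Red, blue and grey circles are members called higher, called lower and not called, and open diamonds give the estimate with the GC-content offset. Scn4b and Scn2b lie right of 0 in both panels, Hcn4 lies farthest left at P15, and the diamond of Hcn2 lies right of 0 at P15 while its circle lies left.

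Among sodium channel alpha subunits the balance shifted away from Scn3a, the subunit prominent in embryonic and early postnatal neurons. Its lowest, median and highest levels were 257, 276 and 293 CPM at P5, 118, 151 and 162 CPM at P15, and 83.8, 102 and 113 CPM in adults. The 3 ages did not overlap, with P5 highest and adults lowest. The log2 change was -0.91 ± 0.05 (edgeR adjusted p = 7.79e-24) at P15 against P5 and -0.53 ± 0.04 (edgeR adjusted p = 1.49e-15) in adults against P15. Scn3a was the 1 member whose adult range lay wholly below that of P15. Per kilobase of exon, its share of the alpha subunits was 34.3 ± 0.871% at P5, 18.2 ± 0.797% at P15, then 14.5 ± 0.647% in adults (means ± SD, n = 14, 14 and 18 animals). All values per kilobase rest on reads assigned to an allele. The part of a gene's reads that could be assigned may differ between genes and was not corrected for. Rankings and shares of genes per kilobase, here and below, carry this limit, and none of them was corrected for GC content. Scn3a lies on chromosome 2 with Scn1a, Scn2a, Scn7a and Scn9a, and of these 5 genes 3 were higher and 2 lower at P15.

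Scn1a, the alpha subunit prominent in fast-spiking inhibitory neurons, went the other way. It had 70.6, 80.8 and 87.7 CPM at P5, 119, 180.2 and 213 CPM at P15, and 124, 159 and 179 CPM in adults. All P15 and adult animals lay above all P5 animals, and P15 and adult ranges overlapped. The log2 change at P15 was 1.10 ± 0.06 (edgeR adjusted p = 4.79e-23). In adults it was -0.12 ± 0.05 (edgeR adjusted p = 0.0396), a call lost with the GC-content offset (0.03 ± 0.05, adjusted p = 0.542). Its share of the alpha subunits was 11.2 ± 0.734% at P5, 23.9 ± 2.46% at P15, then 25.5 ± 1.55% in adults.

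Scn2a, the main alpha subunit of excitatory axons early in life, changed little. Per kilobase its level was 24.95 ± 1.16 CPM per kilobase at P5, 22.8 ± 1.404 CPM per kilobase at P15, and 20.4 ± 2.25 in adults, the highest mean of the alpha subunits at each age. Its log2 change was -0.13 ± 0.05 (edgeR adjusted p = 0.00982) at P15 and -0.16 ± 0.04 (edgeR adjusted p = 0.000901) in adults. The second call was lost with the GC-content offset (-0.02 ± 0.03), and the first was larger with it (-0.40 ± 0.04), while pan-neuronal scaling gave a higher level at P15 (0.18). Scn8a, the subunit of mature axon initial segments and nodes of Ranvier, had 43.1, 49.6 and 54.4 CPM at P5, 30.02, 42.6 and 60.1 CPM at P15, and 42.4, 54.7 and 70.4 CPM in adults. Its ranges overlapped across all ages, with a log2 change of -0.21 ± 0.08 (edgeR adjusted p = 0.0116) at P15, a call lost with the GC-content offset, and 0.39 ± 0.07 (edgeR adjusted p = 3.07e-06) in adults.

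Scn7a, which encodes an atypical channel known as a sensor of extracellular sodium, had the largest log2 increase of any member at P15, 2.07 ± 0.09 (edgeR adjusted p = 3.92e-27). Its levels were 6.61, 9.05 and 13.8 CPM at P5, 30.2, 38.5 and 51.6 CPM at P15, and 22.99, 29.3 and 38.2 CPM in adults. No P15 or adult animal reached down to the P5 range, and adults lay lower than P15 with overlap, with a log2 change of -0.44 ± 0.07 (edgeR adjusted p = 1.86e-07), or -0.24 ± 0.06 with the GC-content offset. Glial marker sums also moved at this step, as given above, and their part in the change was not tested. Scn9a, best known from pain-sensing neurons, had 57.4, 65.4 and 71.6 CPM at P5, 60.5, 76.8 and 89.03 CPM at P15, and 57.1, 64.6 and 95.8 CPM in adults, with overlap of all ages. Its log2 changes of 0.23 ± 0.07 at P15 and -0.17 ± 0.06 in adults were -0.07 ± 0.05 and -0.01 ± 0.04 with the GC-content offset, with no call.

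Among sodium channel beta subunits, the transcripts of Scn2b and Scn4b, whose proteins bind the alpha subunit through a disulfide bond, were higher in both steps. Scn4b, which is tied to resurgent sodium current, had 2.16, 3.82 and 4.904 CPM at P5, 8.59, 13.2 and 17.1 CPM at P15, and 31.9, 41.2 and 58.6 CPM in adults. No range overlapped another, and each later age lay above the one before. The log2 change was 1.81 ± 0.12 (edgeR adjusted p = 1.13e-19) at P15 and 1.72 ± 0.08 (edgeR adjusted p = 2.2e-24) in adults. Scn2b had 70.2, 79.9 and 92.7 CPM at P5, 199, 289 and 449.6 CPM at P15, and 387, 452 and 513 CPM in adults. Every P15 animal lay above every P5 animal, and P15 and adult ranges overlapped. Its log2 change was 1.87 ± 0.09 (edgeR adjusted p = 4.75e-24) at P15 and 0.63 ± 0.08 (edgeR adjusted p = 3.81e-09) in adults. Both genes kept these calls with pan-neuronal scaling and with the GC-content offset.

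At P15 the F1i animals spread widely for Scn2b. Replicates 2, 1 and 5 had 449.6, 435 and 322 CPM, and the other 4 had 208 to 224 CPM. The same 3 libraries had GC slopes of -0.02, -0.06 and -0.13, against -0.41 to -0.33 in the other 4. The slopes therefore moved with the level of Scn2b among these F1i animals, and their part in the spread was not tested. The Scn2b transcript has a GC content of 50.5%, and its P15 change with the GC-content offset was 1.91 ± 0.09.

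Scn2b and Scn4b both lie on chromosome 9, and their promoter windows start 20748 bases apart. The windows, from 250 bases before to 50 after the annotated start, are shown because both genes rose in both steps. They are from RefSeq on build GRCm38.p6, while the submitters' processing notes name mm9 for the counts. The positions are chr9:45117626-45117925 on the + strand for Scn2b and chr9:45138374-45138673 on the + strand for Scn4b.
Scn2b: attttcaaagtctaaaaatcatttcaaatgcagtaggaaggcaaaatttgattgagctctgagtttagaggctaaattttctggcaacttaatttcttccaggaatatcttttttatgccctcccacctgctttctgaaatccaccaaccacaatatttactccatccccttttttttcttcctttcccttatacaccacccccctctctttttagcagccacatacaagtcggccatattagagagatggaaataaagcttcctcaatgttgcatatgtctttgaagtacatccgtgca
Scn4b: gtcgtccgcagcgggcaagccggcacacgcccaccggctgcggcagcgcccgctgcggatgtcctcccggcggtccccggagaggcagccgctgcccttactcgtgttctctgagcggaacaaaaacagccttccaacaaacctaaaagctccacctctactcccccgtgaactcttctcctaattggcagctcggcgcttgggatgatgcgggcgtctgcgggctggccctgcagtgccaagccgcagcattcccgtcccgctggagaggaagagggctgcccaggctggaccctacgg
No letters are in capitals because none of the motifs searched on both strands (GGGCGG of the GC box, TATAAA of the TATA box, TGACGTCA of the CRE and CACGTG of the E-box) occurs in either window. GC content was 38.3% in the Scn2b window and 66.3% in the Scn4b window.

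Scn3b, by contrast, was lower at P15, with 266, 293 and 309 CPM at P5, 148, 162 and 171 CPM at P15, and 129.8, 153 and 166 CPM in adults and a log2 change of -0.87 ± 0.04 (edgeR adjusted p = 4.03e-27). The adult step of -0.09 ± 0.03 (edgeR adjusted p = 0.0123) was lost with the offset (-0.06 ± 0.03). Per kilobase, the share of Scn3b in the beta group was 62.2 ± 2.27% at P5, 27.2 ± 5.45% at P15, then 16.1 ± 1.71% in adults. For Scn2b it was 20.2 ± 1.401% at P5, 55.6 ± 5.202% at P15, then 57.1 ± 1.18% in adults, so the leading transcript of the group differed between P5 and the later ages.

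**Figure D2:**
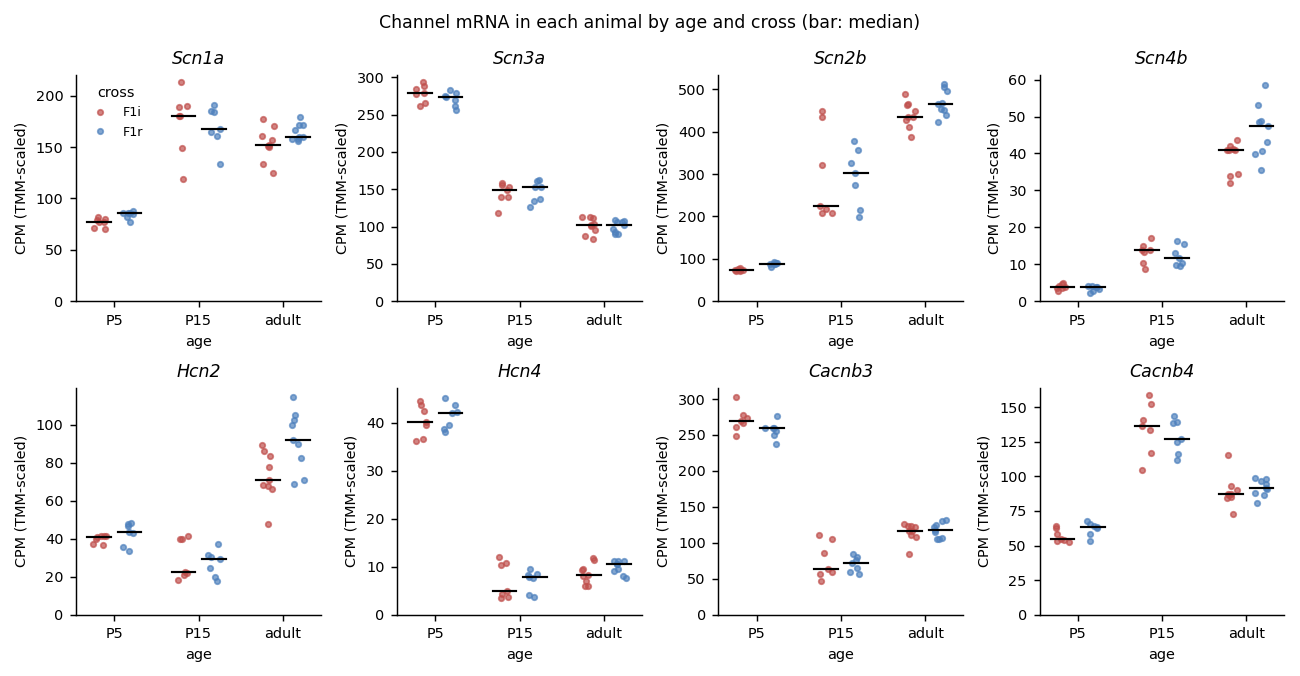
CPM of 8 members in each animal at P5, P15 and adult age, with F1i animals in red left of F1r animals in blue and a bar at each median. Scn4b lies higher at each later age without overlap, Scn3a lies lower at each later age without overlap, and Hcn4 and Cacnb3 drop at P15 below the P5 range.

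In the HCN group the leading transcript also differed by age. Hcn4, the slow cyclic-AMP-sensitive pacemaker channel best known from the heart's sinus node, had 36.3, 41.2 and 45.3 CPM at P5, 3.45, 7.65 and 12.01 CPM at P15, and 5.94, 9.35 and 11.8 CPM in adults. All P15 and adult animals lay far below the P5 range, and the log2 change at P15, -2.54 ± 0.12 (edgeR adjusted p = 3e-24), was the largest decrease of any member. The adult step was 0.38 ± 0.13 (edgeR adjusted p = 0.00859) and was lost with the GC-content offset (0.17 ± 0.10) and with pan-neuronal scaling. Hcn3 followed the same course with 144, 158 and 168 CPM at P5, 34.3, 45.1 and 78.9 CPM at P15, and 42.4, 61.2 and 65 CPM in adults. Its log2 change was -1.71 ± 0.08 (edgeR adjusted p = 9.3e-25) at P15 and 0.31 ± 0.08 (edgeR adjusted p = 0.000467) in adults, and the second call was lost under the same alternatives (0.09 ± 0.05 with the offset).

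Hcn2, a widely expressed neuronal HCN channel, was the most abundant of the group per kilobase in adults. It had 33.5, 41.2 and 47.9 CPM at P5, 17.4, 26.9 and 41.1 CPM at P15, and 47.6, 82.8 and 114 CPM in adults. Adult animals all lay above P15 animals, with a log2 change of 1.53 ± 0.10 (edgeR adjusted p = 2.48e-18) that was 1.23 ± 0.05 with the GC-content offset. The P15 change of -0.55 ± 0.11 (edgeR adjusted p = 1.83e-05) turned to 0.51 ± 0.05 (adjusted p = 6.38e-12) with the offset, so its direction differs between these scales. Hcn2 has the highest GC content of all members, 65.4%.

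Per kilobase of exon, the share of Hcn3 in the HCN transcripts was 65.9 ± 2.13% at P5, 54.02 ± 3.15% at P15, then 34.8 ± 3.15% in adults. That of Hcn2 was 22.3 ± 1.88% at P5, 40.5 ± 2.55% at P15, then 61.2 ± 3.26% in adults, and that of Hcn4 was 11.6 ± 0.716% at P5, 5.13 ± 0.996% at P15, then 3.61 ± 0.511% in adults. Hcn3 was thus above Hcn2 at P5 and P15 and below it in adults, with ranges over animals that did not overlap at any of these ages. Hcn2 and Hcn3 transcripts differ in GC content (65.4% and 58.0%), and no correction for it was made in these shares. Nor was there one for the part of each gene's reads that could be assigned to an allele.

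The promoter windows of Hcn2 (chr10:79716384-79716683, + strand) and Hcn4 (chr9:58822699-58822998, + strand) are shown because their transcripts ended at opposite ends of the group. Capitals mark GGGCGG or its reverse complement.
Hcn2: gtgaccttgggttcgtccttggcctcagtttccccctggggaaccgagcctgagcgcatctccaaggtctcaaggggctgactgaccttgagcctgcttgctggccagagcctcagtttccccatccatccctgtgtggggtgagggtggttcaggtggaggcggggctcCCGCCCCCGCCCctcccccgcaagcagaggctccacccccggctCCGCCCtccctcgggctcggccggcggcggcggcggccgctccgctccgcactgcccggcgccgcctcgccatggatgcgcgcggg
Hcn4: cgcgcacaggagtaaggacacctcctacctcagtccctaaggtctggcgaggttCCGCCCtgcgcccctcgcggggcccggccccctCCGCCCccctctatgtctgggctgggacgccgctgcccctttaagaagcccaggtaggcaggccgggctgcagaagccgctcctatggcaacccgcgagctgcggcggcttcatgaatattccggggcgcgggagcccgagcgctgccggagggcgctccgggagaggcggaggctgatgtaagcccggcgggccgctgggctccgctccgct
The Hcn2 window held this motif 3 times and the Hcn4 window 2 times. GC content was 72.3% in the Hcn2 window and 71.7% in the Hcn4 window. Of all 27025 genes with a RefSeq window 35.9% held the motif at least once, as did 18 of the 35 members with a window (51.4%). The median GC content of the windows was 62.7% for members and 52.7% for all genes. TATAAA occurred in 3 members' windows (8.57%, against 14.2% of all), CACGTG in 1 (2.86%, against 7.24%) and TGACGTCA in 0 (against 1.88%).

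**Figure D3:**
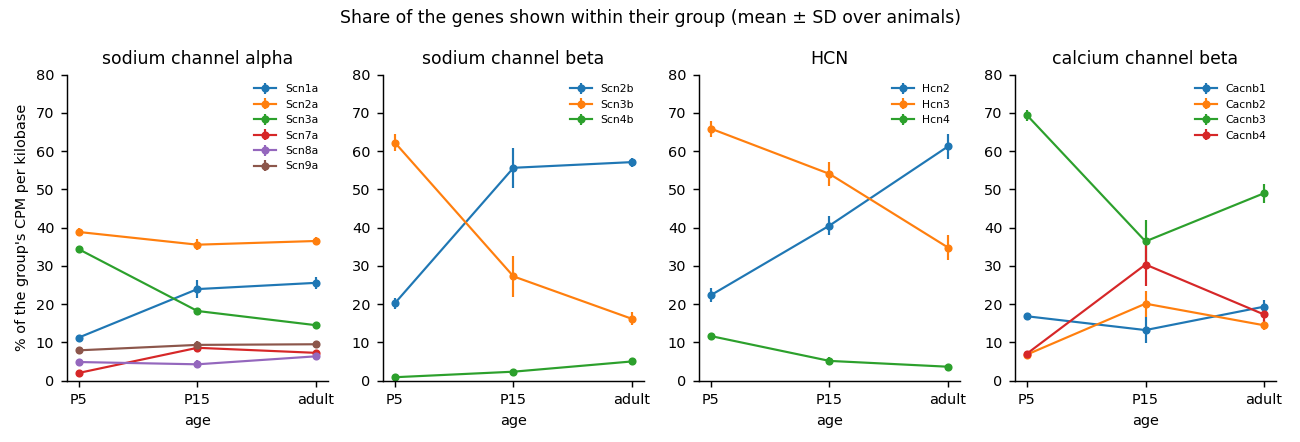
Share of the genes shown in the summed CPM per kilobase of their whole group, as mean ± SD over 14, 14 and 18 animals at P5, P15 and adult age. Scn3a and Scn3b fall at P15, Scn2b leads the beta subunits from P15 on, Hcn2 leads the HCN group in adults, and Cacnb3 leads the calcium channel beta subunits at every age.

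The pore subunits of calcium channels were mostly lower from P15 on. Cacna1g, the T-type channel of low-threshold bursting, had 224, 243 and 257 CPM at P5, 66.8, 86.6 and 106 CPM at P15, and 65.98, 87.6 and 109 CPM in adults, with a log2 change at P15 of -1.49 ± 0.07 (edgeR adjusted p = 1.57e-25). Cacna1h, another T-type channel, had 104, 117 and 126 CPM at P5, 21.3, 27.1 and 42.7 CPM at P15, and 23.5, 35.8 and 47.1 CPM in adults. Its log2 change was -1.996 ± 0.09 (edgeR adjusted p = 7.22e-26) at P15 and 0.27 ± 0.09 (edgeR adjusted p = 0.00424) in adults. For both genes P15 and adult animals lay below all P5 animals and overlapped each other. The values with the GC-content offset were smaller at P15, -0.95 ± 0.04 for Cacna1g and -1.31 ± 0.05 for Cacna1h, and the adult call of Cacna1h was lost (0.02 ± 0.05).

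Cacna1i, the T-type gene known from the thalamic reticular nucleus, had 46.97, 52.5 and 59.1 CPM at P5, 24.7, 31.9 and 50.3 CPM at P15, and 35.5, 49.4 and 62.04 CPM in adults. Its P15 call (-0.66 ± 0.09) was lost with the offset (-0.03 ± 0.06), and its adult increase was 0.57 ± 0.08 (edgeR adjusted p = 1.38e-08), or 0.33 ± 0.05 with it. Per kilobase its share of the T-type transcripts was 12.9 ± 0.95% at P5, 22.5 ± 2.66% at P15, then 29.6 ± 2.09% in adults, while that of Cacna1g was 58.2 ± 1.51% at P5, 57.6 ± 3.67% at P15, then 49.1 ± 2.37% in adults.

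The presynaptic channels Cacna1a (P/Q-type), Cacna1b (N-type) and Cacna1e (R-type) were all lower at P15, and 0 of the 3 passed the test in the adult step, either way. Cacna1b was the most abundant of the group per kilobase, with 32.7 ± 1.14 CPM per kilobase at P5, 15.4 ± 2.81 CPM per kilobase at P15, and 14.9 ± 1.77 in adults. Its log2 change at P15 was -1.08 ± 0.07 (edgeR adjusted p = 2.74e-20), and all P15 animals lay below all P5 animals. Cacna1a changed by -0.98 ± 0.07 (edgeR adjusted p = 3.96e-17), and by -0.42 ± 0.05 with the GC-content offset. Cacna1e, with overlapping ranges, changed by -0.36 ± 0.07 (edgeR adjusted p = 3.83e-06). With the offset Cacna1a and Cacna1b were also called lower in adults (-0.22 ± 0.04 and -0.15 ± 0.05). Pan-neuronal scaling gave no P15 call for Cacna1e (-0.06 ± 0.06). On that scale Cacna1a, Cacna1b and Cacna1e were all lower in adults (-0.19, -0.25 and -0.19), as were 54.2% of all genes.

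Of the L-type genes, Cacna1d, whose channel opens at relatively negative voltages and supports pacemaking, was lower in both steps. It had 90.7, 97 and 107 CPM at P5, 52.1, 63.6 and 75.5 CPM at P15, and 40.6, 51.6 and 56.1 CPM in adults, with log2 changes of -0.59 ± 0.04 (edgeR adjusted p = 5.49e-17) and -0.36 ± 0.04 (edgeR adjusted p = 1.8e-10). P5 lay above all later animals, and P15 and adult ranges overlapped. Cacna1c, the other brain L-type channel, was called at P15 only, with a log2 change of -0.93 ± 0.07 (edgeR adjusted p = 1.41e-16). Cacna1s, the skeletal muscle channel, had at most 4.33 CPM in any animal.

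Among the 4 beta subunits of calcium channels 2 were higher and 2 lower at P15. Cacnb3 led the beta subunits at P5 and had 238, 261 and 303 CPM at P5, 46.8, 68.3 and 110.1 CPM at P15, and 84.2, 117 and 132 CPM in adults. P15 animals all lay below P5 animals and overlapped with adults. The log2 change was -1.86 ± 0.08 (edgeR adjusted p = 2.48e-26) at P15, or -1.09 ± 0.04 with the GC-content offset, and 0.67 ± 0.08 (edgeR adjusted p = 6.6e-11) in adults, or 0.41 ± 0.04 with it. Cacnb1, the beta subunit of muscle and brain channels, had 65.6, 72.8 and 76.2 CPM at P5, 17.97, 28.6 and 53.6 CPM at P15, and 33.5, 51.2 and 60.9 CPM in adults. It changed the same way, by -1.28 ± 0.10 (edgeR adjusted p = 7.81e-16) and 0.79 ± 0.10 (edgeR adjusted p = 9.12e-10). With the offset its P15 change was -0.62 ± 0.07.

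Cacnb4, the beta subunit mutated in the lethargic mouse, went the other way with 52.7, 60.4 and 67.8 CPM at P5, 105, 135 and 159 CPM at P15, and 73.1, 89.3 and 115 CPM in adults. All later animals lay above the P5 range, and P15 and adult ranges overlapped. This gave a log2 change of 1.14 ± 0.06 (edgeR adjusted p = 2.61e-24) at P15 and -0.54 ± 0.05 (edgeR adjusted p = 1.44e-13) in adults, where the offset gave -0.35 ± 0.04. Cacnb2, the beta subunit prominent in heart, had 78.1, 84.8 and 90.5 CPM at P5, 109, 131 and 148 CPM at P15, and 99.1, 112 and 122 CPM in adults, with all later animals above P5. It changed by 0.60 ± 0.04 (edgeR adjusted p = 1.01e-19) at P15, against 0.20 ± 0.04 with the offset. Its adult change of -0.20 ± 0.04 (edgeR adjusted p = 1.29e-06) was 0.02 ± 0.04 with the offset, so that call and its direction did not hold. Per kilobase the share of Cacnb3 in the beta subunits was 69.4 ± 1.45% at P5, 36.4 ± 5.64% at P15, then 48.97 ± 2.51% in adults, and that of Cacnb4 was 7.03 ± 0.722% at P5, 30.3 ± 5.49% at P15, then 17.3 ± 2.58% in adults.

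All 3 alpha2delta genes were lower at P15. Cacna2d1, a target of gabapentin and the most abundant of them, had 406, 525.5 and 582 CPM at P5, 215, 251 and 281 CPM at P15, and 289, 342 and 499 CPM in adults. P5 and P15 did not overlap, nor did P15 and adults, and the P15 animals were lowest. The log2 change was -1.06 ± 0.06 (edgeR adjusted p = 4.77e-21) at P15 and 0.53 ± 0.06 (edgeR adjusted p = 4.3e-11) in adults. Cacna2d2, the subunit mutated in the ducky mouse, had 70.1, 79.7 and 90.7 CPM at P5, 17.3, 24.9 and 40.8 CPM at P15, and 24.4, 38.6 and 52.2 CPM in adults. All later animals lay below the P5 range. It changed by -1.62 ± 0.11 (edgeR adjusted p = 6.23e-19) and 0.59 ± 0.10 (edgeR adjusted p = 2.56e-06). Cacna2d3 changed by -0.82 ± 0.04 (edgeR adjusted p = 2.98e-23) at P15 and was not called in adults.

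All 5 gamma genes were lower at P15 as well. Cacng4, an AMPA receptor regulator, had the highest level of allele-assigned counts per kilobase of any member at P5. It had 114 ± 4.03 CPM per kilobase at P5, 29.8 ± 10.4 CPM per kilobase at P15, and 32.7 ± 2.31 in adults. Its animals had 387, 407 and 431 CPM at P5, 60.7, 103 and 164 CPM at P15, and 96, 118 and 131 CPM in adults. Every P15 and adult animal lay below the P5 range, with a log2 change at P15 of -1.94 ± 0.10 (edgeR adjusted p = 8.74e-23) and no call in adults (0.14 ± 0.10, adjusted p = 0.201). Cacng2, also called stargazin, had 26.4, 30.6 and 37.5 CPM at P5, 10.2, 15.8 and 24.7 CPM at P15, and 19.2, 25.2 and 35.9 CPM in adults, with P15 below P5 and adults overlapping both. It changed by -0.91 ± 0.11 (edgeR adjusted p = 6.02e-11) at P15 and 0.66 ± 0.10 (edgeR adjusted p = 7.5e-08) in adults. Cacng7 and Cacng3 were called lower at P15 (-0.47 ± 0.09 and -0.30 ± 0.07), and both calls were lost with the GC-content offset (0.05 ± 0.06 and -0.04 ± 0.06). Per kilobase the share of Cacng7 in the group was 23.4 ± 1.202% at P5, 38.4 ± 2.32% at P15, then 46.6 ± 3.01% in adults, and that of Cacng4 was 57.1 ± 1.58% at P5, 32.97 ± 4.46% at P15, then 28.8 ± 2.02% in adults.

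Among TRPM genes 3 were higher and 1 lower at P15, and 2 were higher and 2 lower in adults. Trpm3, a channel opened by pregnenolone sulfate and heat, had 24.4, 27.6 and 32.1 CPM at P5, 39.1, 46.5 and 50.3 CPM at P15, and 41.7, 50.9 and 58.8 CPM in adults, with all P15 animals above all P5 animals. The log2 change was 0.72 ± 0.05 (edgeR adjusted p = 5.08e-20) at P15 and 0.12 ± 0.04 (edgeR adjusted p = 0.00833) in adults, where the GC-content offset gave 0.20 ± 0.04 and pan-neuronal scaling -0.08. Trpm7, a channel fused to a kinase and involved in magnesium balance, had 77.1, 81.6 and 93.9 CPM at P5, 105, 125 and 132 CPM at P15, and 72.4, 85.3 and 123 CPM in adults. P15 lay above P5 without overlap, by 0.56 ± 0.05 (edgeR adjusted p = 1.44e-14), and adults differed from P15 by -0.49 ± 0.05 (edgeR adjusted p = 2.34e-13). With the GC-content offset these changes were 0.19 ± 0.03 and -0.29 ± 0.03. Trpm2, a calcium channel gated by ADP-ribose and abundant in microglia, had 61.8, 67.4 and 78.03 CPM at P5, 47.2, 66.2 and 84.9 CPM at P15, and 80.8, 104 and 128 CPM in adults. It was called in adults, with a log2 change of 0.68 ± 0.06 (edgeR adjusted p = 2.9e-14). The summed CPM of 5 microglia genes were 181, 199 and 211 at P5, 331, 357 and 394 at P15, and 222, 271 and 313 in adults, and their part in the change was not tested.

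Of the 5 TRPC-named genes 1 was higher and 3 lower at P15, and 2 were higher and 2 lower in adults. Trpc7, a channel opened by diacylglycerol, had 13.8, 15.3 and 20.8 CPM at P5, 9.502, 12.5 and 15.3 CPM at P15, and 7.33, 10.2 and 12.7 CPM in adults. Its P15 range overlapped both others, and all adults lay below all P5 animals. Its log2 changes were -0.34 ± 0.07 (edgeR adjusted p = 6.66e-05) and -0.28 ± 0.07 (edgeR adjusted p = 0.000404). The P15 call was lost with pan-neuronal scaling (-0.04 ± 0.08, edgeR adjusted p = 0.672). Summed over 5 cerebellar markers, CPM were 164, 179 and 189 at P5 and 119, 132 and 155 at P15. In adults the sums were 94.03, 112 and 135. The single markers did not all fall. Of the 3 tested, 1 was higher and 2 lower at P15 against P5. In adults against P15, 2 were higher and 1 lower. The part of these markers in the Trpc7 decrease was not tested. Trpc4ap, the most abundant TRPC-named gene per kilobase, had 165, 177 and 185 CPM at P5, 108, 133 and 173 CPM at P15, and 199, 229 and 262 CPM in adults. Adults lay above all younger animals, with a log2 change of 0.77 ± 0.04 (edgeR adjusted p = 1.12e-20). Trpm4, a calcium-activated cation channel, was lower at P15, with a log2 change of -0.95 ± 0.08 (edgeR adjusted p = 1.76e-15), or -0.52 ± 0.07 with the GC-content offset. The TRPV gene Trpv2 changed by -0.24 ± 0.04 (edgeR adjusted p = 2.64e-06), a call lost with the offset (-0.02 ± 0.04), and then by 0.41 ± 0.04 (edgeR adjusted p = 6.84e-13), or 0.27 ± 0.04 with it.

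The crosses differed at P5 for 1 member of 46 tested, Scn2b, where 1.17% of all genes were called. F1i animals had 70.2, 73.6 and 77.9 CPM as lowest, median and highest, and F1r animals 81.8, 87.5 and 92.7 CPM. All F1i animals lay below all F1r animals, with a log2 difference of -0.25 ± 0.04 (edgeR adjusted p = 3.31e-05). The difference was also called by DESeq2, with RLE scaling, with no count filter, with a replicate block and with the GC-content offset. All 7 myelin genes were lower in F1i animals at P5, with a median log2 difference of -0.49 and sums of 1824 to 2157 CPM in F1i against 2444 to 3046 CPM in F1r animals, and 3 of 5 serotonergic genes were lower too. Their part in the Scn2b difference was not tested. The labels do not name the mother of either cross, so strain of the mother and cross cannot be told apart.

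At P15 the edgeR test called 0 of 45 members between crosses (0.0467% of all genes), and DESeq2 called 0. At an unadjusted p under 0.05 there was 1 member, against 235 of all 12850 genes. In adults the edgeR test called 0 of 47 (0.111% of all genes). At an unadjusted p under 0.05 there were 8 members, against 1244 of all 13516 genes. DESeq2 called 1 member, and over all 15349 genes 43 higher and 11 lower. The second label number as a replicate block called 2 members. Hcn2 was lower in F1i adults with that block, with adults summed by first number and with the GC-content offset. Over all genes these called 65, 179 and 33 higher and 12, 127 and 13 lower. DESeq2, RLE scaling and leaving out F1i adult 1_1 did not call Hcn2. It had 47.6, 71.0 and 89.2 CPM in F1i and 68.9, 92.1 and 114 CPM in F1r adults. Scn4b was lower with summed adults only. A parental effect, which is a preference for the allele of 1 parent, was called for 0 of 44 members in P5 animals, 0 of 44 in P15 animals and 0 of 47 in adults. Over all genes 2.71%, 0.742% and 2.71% were called at these ages. At an unadjusted p under 0.05 there were 2, 1 and 0 members, against 958 of all 12070, 710 of 11996 and 1077 of 12675 genes. DESeq2 and limma called 0 members.

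The allele counts showed many small differences between the strains. The strain effect is log2(CAST/C57) as the mean of the F1i and F1r values. At P5 the CAST allele was higher for 14 and the C57 allele for 11 of 44 members tested (31.5% and 26.9% of all genes), and with an own scaling factor for each allele column the split was 12 and 12. DESeq2 called fewer at P5, 7 and 4 members, and 2643 and 2126 of all 12070 genes. At P15 the edgeR split was 13 and 9 of 44 (31.1% and 27.3%). In adults it was 19 and 15 of 47 (35.9% and 31.9%), or 15 and 18 with own scaling factors. The edgeR shares are near the background. The median size of a called effect was 0.15, 0.20 and 0.16 log2 units for members and 0.27, 0.29 and 0.25 for all genes.

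At all 3 ages the CAST allele was higher for Cacna1e, Cacna2d2, Scn2a, Scn3b, Trpc4, Trpc4ap and Trpm2, and the C57 allele for Hcn3, Cacna1h, Cacnb2, Scn4b, Scn7a and Trpm7. These are 7 and 6 of the 43 members tested at every age. Over all 11649 genes the shares were 21.44% and 17.68%. Allele assignment is not described in the sources used here, and the 3 ages have the same genomes, so that any mapping preference for 1 allele would recur at each age. Members called at no age included Scn8a, Cacna1c, Cacna2d3, Cacnb1, Cacng2 and Trpm3.

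**Figure D4:**
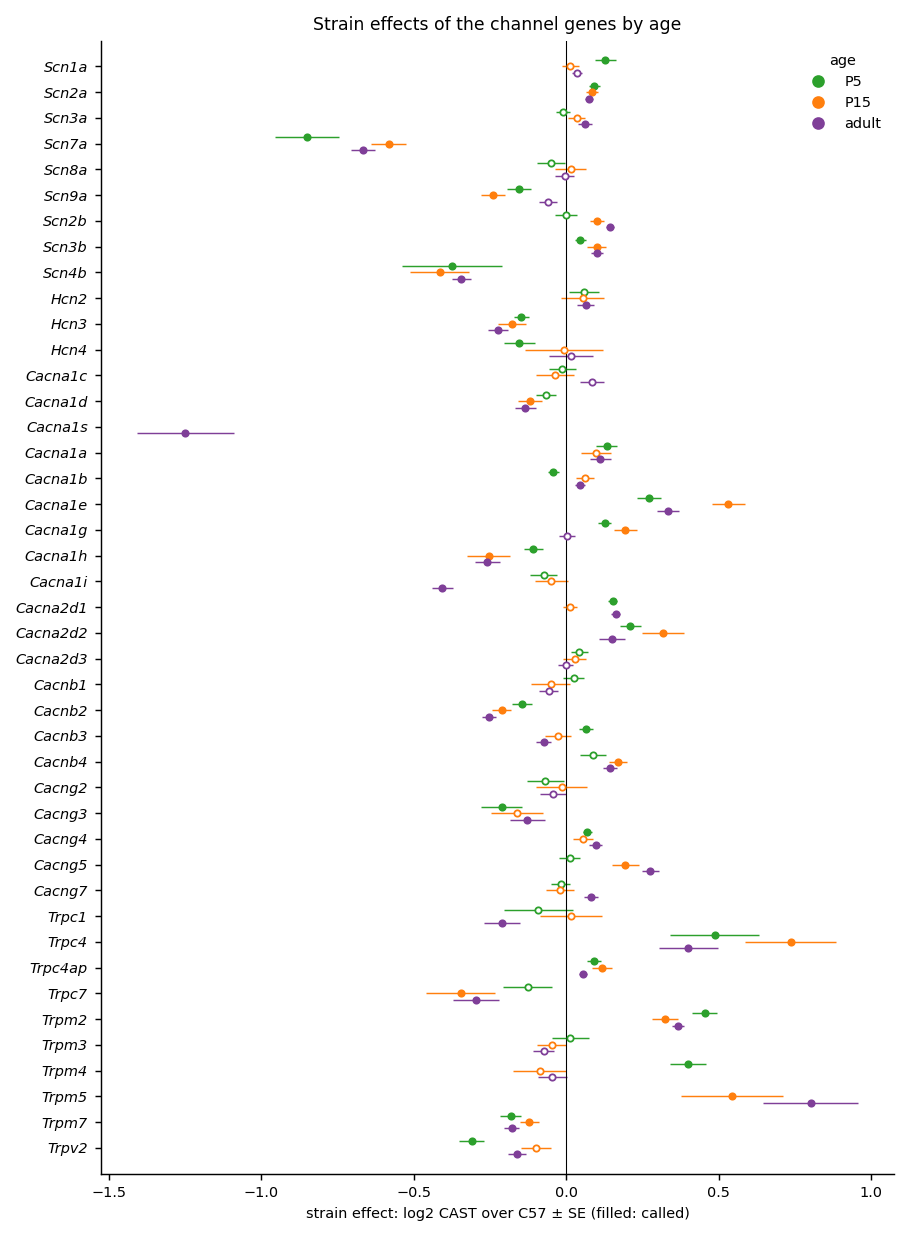
Strain effect (log2 CAST over C57) ± SE of 43 members at P5 (green), P15 (orange) and adult age (purple), with filled points called and open points not called, and no point where a gene was not tested. Scn7a and Cacna1s lie farthest toward C57 and Trpc4 and Trpm5 farthest toward CAST, and most others lie within 0.5 of 0.

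Scn7a had the largest C57 excess among members called at every age. Its CAST share was 35.4 ± 7.09% at P5, 40.2 ± 4.0% at P15 then 38.3 ± 2.77% in adults (means ± SD over 14, 14 and 18 animals), and it was below 50% in every animal. The strain effect was -0.85 ± 0.11 (edgeR adjusted p = 9.52e-10) at P5, -0.58 ± 0.06 (edgeR adjusted p = 3.08e-12) at P15 and -0.67 ± 0.04 (edgeR adjusted p = 4.67e-17) in adults. Single shares at P5 rest on few counts: the lowest was 21.3% (95% Wilson interval 11.99 to 34.9%, 47 counts). Such intervals cover counting error only. Scn4b had CAST shares of 43.1 ± 10.9% at P5, 42.1 ± 6.91% at P15 then 44.3 ± 1.74% in adults, below 50% in 10, 12 and all 18 animals. Its strain effects were -0.37 ± 0.16 (edgeR adjusted p = 0.0467), -0.42 ± 0.10 (edgeR adjusted p = 0.000243) and -0.34 ± 0.03 (edgeR adjusted p = 1.81e-12), and at P5 the call was lost with DESeq2 (adjusted p = 0.148) and without a count filter.

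The next members on the C57 side had effects of 0.11 to 0.26 log2 units in size. Cacnb2 had CAST shares of 47.6 ± 1.55% at P5, 46.6 ± 1.79% at P15 then 45.5 ± 1.6% in adults, below 50% in all 46 animals, with effects of -0.15 ± 0.03, -0.21 ± 0.03 and -0.25 ± 0.02. For Hcn3 they were 47.4 ± 1.6% at P5, 46.97 ± 2.75% at P15 then 46.2 ± 2.55% in adults, with effects of -0.15 ± 0.03, -0.18 ± 0.05 and -0.22 ± 0.03. Cacna1h gave -0.11 ± 0.03, -0.25 ± 0.07 and -0.26 ± 0.04, and Trpm7 -0.18 ± 0.03, -0.12 ± 0.03 and -0.18 ± 0.02. The largest edgeR adjusted p among these 12 values was 0.00286, for Cacna1h at P5. DESeq2 lost the P5 calls of Cacnb2 and Cacna1h.

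On the CAST side Trpc4 led, with shares of 59.1 ± 9.34% at P5, 62.97 ± 9.63% at P15 then 56.7 ± 6.6% in adults and effects of 0.49 ± 0.15 (edgeR adjusted p = 0.00372), 0.74 ± 0.15 (edgeR adjusted p = 3.45e-05) and 0.40 ± 0.10 (edgeR adjusted p = 0.000463). Its counts are low and its single shares imprecise: the highest at P15 was 85% (95% Wilson interval 63.96 to 94.8%, 20 counts). Trpm2 rests on more counts, with CAST shares of 57.9 ± 3.22% at P5, 55.7 ± 3.07% at P15 then 56.3 ± 1.12% in adults. It was above 50% in all animals but 1 at P15, with effects of 0.45 ± 0.04 (edgeR adjusted p = 2.75e-13), 0.32 ± 0.04 (edgeR adjusted p = 1.09e-08) and 0.37 ± 0.02 (edgeR adjusted p = 7.69e-19). Cacna1e had 54.8 ± 2.04% at P5, 59.3 ± 3.62% at P15 then 56.1 ± 2.81% in adults, above 50% in every animal, with effects of 0.27 ± 0.04, 0.53 ± 0.05 and 0.33 ± 0.04.

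Cacna2d2 followed with effects of 0.21 ± 0.03, 0.32 ± 0.07 and 0.15 ± 0.04. Trpc4ap and Scn2a had small effects with narrow errors, 0.09 ± 0.02, 0.12 ± 0.03 and 0.06 ± 0.01 for Trpc4ap and 0.09 ± 0.02, 0.08 ± 0.02 and 0.07 ± 0.01 for Scn2a. The largest edgeR adjusted p among these 12 values of Cacna1e, Cacna2d2, Trpc4ap and Scn2a was 0.00225, for Cacna2d2 in adults. DESeq2 lost the P5 calls of Trpc4ap and Scn2a. Among members tested at fewer ages, Cacna1s gave -1.25 ± 0.16 (edgeR adjusted p = 1.15e-08) in adults, at a mean of 21.8 counts per animal.

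**Figure D5:**
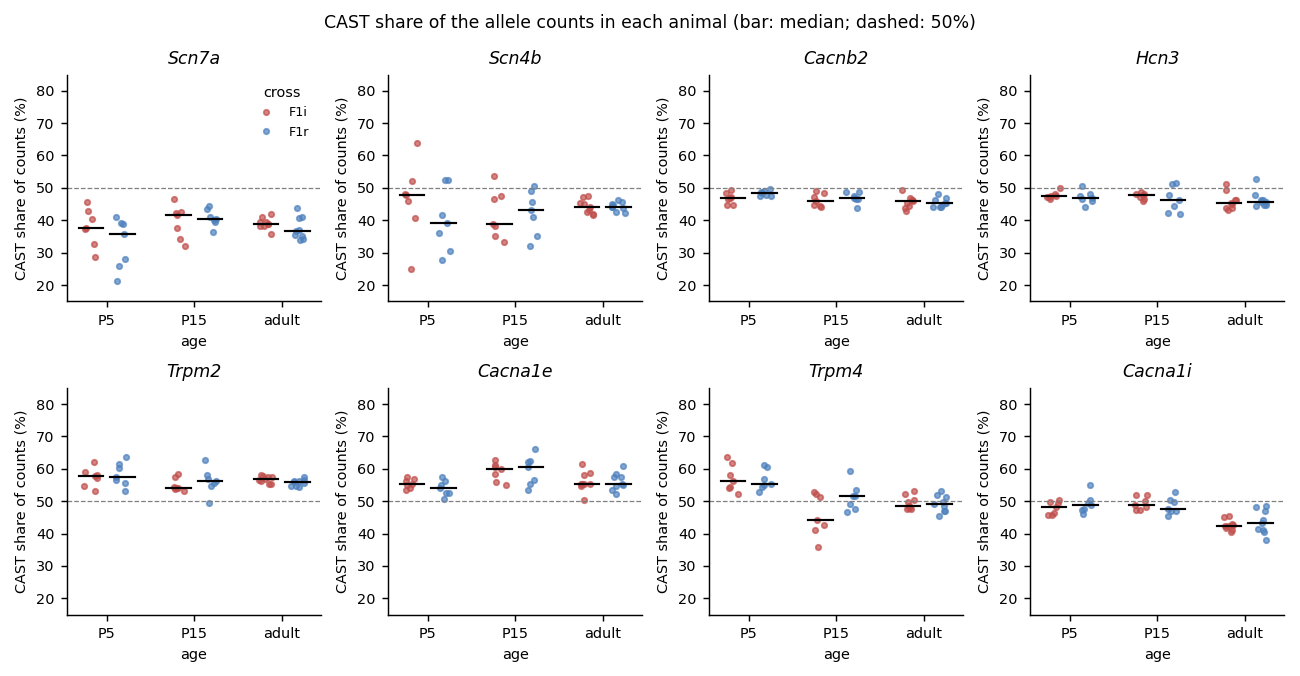
CAST share of the allele counts in each animal at P5, P15 and adult age for 8 members, with F1i animals in red left of F1r animals in blue, a bar at each median and a dashed line at 50%. All animals lie below 50% for Scn7a and Cacnb2 and above 50% for Cacna1e, while Trpm4 lies above 50% in all P5 animals and on both sides later, and Cacna1i lies below 50% in all adults.

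The strain effect itself changed with age for a minority of members. At P15 against P5 it was higher for 4 and lower for 3 of 43 members (9.56% and 10.2% of all genes), or for 7 and 2 with own scaling factors, and in adults against P15 higher for 2 and lower for 3 (7.79% and 8.40%). Trpm4 had CAST shares of 56.9 ± 3.59% at P5, 48.6 ± 6.0% at P15 then 49.3 ± 2.26% in adults, above 50% in all 14 P5 animals, and its effect changed by -0.49 ± 0.10 (edgeR adjusted p = 6.39e-05) at P15. Cacna1i had 48.6 ± 2.49% at P5, 48.9 ± 2.26% at P15 then 43.1 ± 2.83% in adults, below 50% in all 18 adults, and its effect changed by -0.36 ± 0.06 (edgeR adjusted p = 1.79e-05) in adults. Cacna1e, CAST-higher throughout, changed by 0.26 ± 0.07 (edgeR adjusted p = 0.00263) and then -0.20 ± 0.06 (edgeR adjusted p = 0.0194).

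Cacna2d1 was CAST-higher at P5 and in adults and not called at P15, with shares of 52.5 ± 1.21% at P5, 50.2 ± 1.21% at P15 then 52.8 ± 1.18% in adults and changes of -0.14 ± 0.03 (edgeR adjusted p = 5.07e-05) and 0.15 ± 0.03 (edgeR adjusted p = 6.09e-06). The other changes at P15 were 0.21 ± 0.06 for Trpv2, 0.18 ± 0.06 for Cacng5, -0.11 ± 0.04 for Scn1a and 0.10 ± 0.03 for Cacna1b, with edgeR adjusted p from 0.008 to 0.0376. That of Scn1a was lost with own scaling factors (adjusted p = 0.256). In adults the others were -0.19 ± 0.04 for Cacna1g and 0.18 ± 0.05 for Scn9a. Cacna1b and Cacnb3 were called in opposite directions at P5 and in adults, with effects of -0.04 ± 0.02 and 0.05 ± 0.02 for Cacna1b and 0.06 ± 0.02 and -0.07 ± 0.02 for Cacnb3; the difference between P5 and adults was not tested.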

How the data were processed

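RNA of the dorsal raphe nucleus was extracted with a Qiagen RNeasy kit, prepared with Illumina TruSeq and sequenced as single-end reads of 50 bp, per the labels' protocols. Novoalign and build mm9 are named in the submitters' processing notes. How reads were assigned to alleles, and how strand and multiply mapping reads were treated, is not given in the sources used here. The authors deposited raw counts per gene and allele, with 1 table per age and a C57 and a CAST column per library. The 3 tables hold 92 such columns for 46 libraries. The labels do not say whether libraries came from separate animals, so p-values measure the spread between libraries.

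Totals were the sum of both alleles, scaled by TMM over all genes. Age and cross effects were fitted with edgeR's quasi-likelihood test (R 4.3.3, edgeR 4.0.16), ages over all 3 tables in 1 fit and crosses within each age, keeping genes with edgeR's expression filter. Allele effects were fitted to the allele columns with a term for each library, on genes whose summed counts averaged at least 20 at that age. P-values were adjusted by Benjamini-Hochberg over all genes tested, with a threshold of 0.05. Alternatives were RLE scaling, scaling to pan-neuronal genes, no count filter or a minimum of 100, DESeq2 1.42.0, limma 3.58.1 on log2 allele ratios with a pseudocount of 1, an own TMM factor per allele column, adults summed by first number and a replicate block. The GC-content offset (a lowess curve of span 0.3 per library over the GC content of the longest transcript) and the fit without F1i adult 1_1 were chosen after seeing the data. The fits were tested on simulated data.

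The members and lists were chosen with earlier results of these data known. Named in full were the 8 members with the largest called log2 change in each direction per age step with a mean of 5 CPM or more at either age, the 6 per direction with the largest strain effect among those called at all ages, and up to 6 called members per other comparison. CPM per kilobase used exon lengths of GENCODE M21, which also gave the symbols of 14969 of the 15499 Ensembl gene IDs. Every column was matched to a sample. Median library totals were 5926281 at P5, 5044116 at P15 and 10923241 in adults, so allele shares of low genes are least precise at P5 and P15. Of the 47 members 4 enter the counts but are not reported here by name or value.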

Additional observations from a re-analysis of the deposited data

Results flagged for a closer look

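Of 222 groups of values for named members, 14 had 1 library far from the rest, and chance gives about 1 in 20. The F1i adult library 1_1 stood apart for 5 members: Cacnb3 at 84.2 CPM against 107 or more in the other F1i adults, Cacng4 at 96.0 against 111 or more, Hcn3 at 42.4 against 54.7 or more, Cacnb4 at 115 against 92.8 or less, and Trpm7 at 123 against 96.8 or less. The same library had the steepest GC slope of all adults, -0.48 per 10 percentage points. Without it 24 members were higher and 14 lower in adults against P15.

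Other libraries stood apart for 1 member each in F1i animals: Scn7a at 51.6 CPM in P15 replicate 4, Trpc7 at 20.8 CPM in P5 replicate 2 and Trpm3 at 31.2 CPM in P5 replicate 7. In F1r animals they were Trpc4ap at 173 CPM in P15 replicate 3, Trpm2 at 78.0 CPM in P5 replicate 2 and Trpm7 at 93.9 CPM in P5 replicate 3. Among CAST shares, Cacnb2 was at 43.8% in F1r P15 replicate 7, Hcn3 at 52.6% in F1r adult 6_2 and Trpc4 at 44.8% in F1r P5 replicate 5.

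Strain effects (log2 CAST over C57) that changed between ages by the interaction test in edgeR were also singled out. At P15 against P5 the changes were -0.49 for Trpm4, 0.26 for Cacna1e, 0.21 for Trpv2, 0.18 for Cacng5, -0.14 for Cacna2d1, -0.11 for Scn1a and 0.10 for Cacna1b. In adults against P15 they were -0.36 for Cacna1i, -0.20 for Cacna1e, -0.19 for Cacna1g, 0.18 for Scn9a and 0.15 for Cacna2d1.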

How the results depend on the processing

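Over all 47 members, the GC-content offset kept 37 of 45 calls at P15 against P5 and 27 of 36 in adults against P15, and turned Hcn2 at P15. Scaling to pan-neuronal genes kept 36 and 30 of them, and turned Scn2a at P15 and Trpm3 in adults. For a chosen set of 80 results, mostly those with the largest effects, 503 of 511 values under an alternative kept their direction and their side of the threshold. Among these Cacnb2 in adults against P15 turned to 0.0202 with the GC-content offset, and 7 lost their call, 6 of them strain effects at P5. For the strain effect at P5 DESeq2 called 7 members higher and 4 lower, against 14 and 11 in the main fit. Over all genes it called 2643 and 2126, against 3804 and 3248. Scaling to pan-neuronal genes gave 23 members lower in adults against P15. Between crosses in adults, DESeq2 called 1 member, the replicate block 2, summing adults by first number 3 and the GC-content offset 1. Over all genes these called 43, 65, 179 and 33 higher and 11, 12, 127 and 13 lower. Same-numbered libraries of the crosses had median correlations of 0.02 at P5 and -0.12 at P15, against 0.00 and 0.02 for other pairs. In adults with the same second number the median was 0.25, against -0.09 for other pairs, and 22 of 27 were positive. Adult GC slopes and totals also differed by second number, with medians of -0.16, 0.12 and 0.09 per 10 percentage points and of 12705624, 6724120 and 11384707 counts for numbers 1, 2 and 3. The labels do not say what the number marks, and the main fits did not use it, although adult libraries differed by it. With it as a block, the adult cross comparison called 65 genes higher and 12 lower, against 13 and 2 in the main fit. With the replicate block 13 members were higher and 32 lower at P15 against P5, and 15 higher and 9 lower for the strain effect at P15. No paired analysis was possible for adults against P15 because adult labels carry 2 numbers. Leaving out F1i adult 1_1 moved no count by over 1.5 times. Depth limits the allele shares of low genes such as Trpc4.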
